A study of Mus musculus with 24 samples.

Results

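This account describes 8 genes of the extracellular signal-regulated kinase (ERK) cascade, taken out of 22274 genes in the deposited table: the kinases Braf, Map2k1, Map2k2 and Mapk3, and the feedback inhibitors Dusp4, Dusp6, Spry2 and Spry4. They were chosen by name, as the genes whose identifiers map to these symbols, and each of the 8 was found once in the table. All 8 passed the filter on low counts in every comparison.

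In the ERK cascade, growth factor receptors and Ras activate Raf kinases such as Braf, which phosphorylate MEK1 and MEK2 (the products of Map2k1 and Map2k2), which in turn phosphorylate the ERK kinases, among them ERK1 (the product of Mapk3). The cascade is held back by its own products: the phosphatases encoded by Dusp4 and Dusp6 remove phosphate from ERK, in the nucleus and in the cytoplasm respectively, and the Sprouty proteins Spry2 and Spry4 act upstream of it, and transcripts of both families are known to rise when ERK is active. In the brain the cascade is known for its part in synaptic plasticity and memory and in the response of glia to injury. Transcript levels do not measure phosphorylation, so none of the values below is a reading of kinase activity.

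Pituitary stalk electrical lesion (PEL) destroys the stalk between hypothalamus and pituitary by an electric current, and RNA of male C57BL/6J mice was sequenced after it, in 24 libraries of 8 groups with 3 libraries each. The hypothalamus, dissected to hold the supraoptic and paraventricular nuclei, was taken from Sham mice (SHAM), from mice at day 3 (PEL_3d) and day 10 (PEL_10d) after PEL, and from mice of the same 3 kinds given growth hormone (SHAM_GH, PEL_3d_GH, PEL_10d_GH), for which no dose is stated in the labels. The hippocampus was taken from Sham mice (HIP_SHAM) and from PEL mice at day 10 (HIP_PEL_10d), without growth hormone (GH). No Sham group is tied to day 3 or day 10, so changes with time in lesioned mice have no Sham of the same day. No label ties a library to a single animal, so the p-values below measure the spread between libraries, which may in part be technical.

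Each library held between 15095267 and 17973494 counts. In 2 libraries the marker genes go against the label. The library labelled SHAM 1 had 301.4 FPKM (fragments per kilobase of gene and per unit of library size, the level used throughout) summed over 10 hippocampus markers and 7.897 over 12 hypothalamus markers, where the other 17 hypothalamic libraries had 43.67 to 60.79 and 789 to 6553. The highest of these, 6553, is PEL_10d_GH 3 alone, with 5480 FPKM of Pomc, the precursor of pituitary and hypothalamic peptides, where the next library had 1635 in all; its 7 anterior pituitary markers also summed highest, to 76.84 FPKM against at most 36.13 in the others. The library labelled HIP_SHAM 1 had 53.11 and 1066, where the other 5 hippocampal libraries had 347 to 446.9 and 1.314 to 3.679. Replicate pairs that include either library differed by a chi-square per degree of freedom of 156 to 160, and the other 20 pairs by 3.19 to 19.7. One library titled as HIP_SHAM 3 carries the hypothalamus in its tissue field; its hippocampus markers summed to 376.3 FPKM and it was kept by its title. The study did not analyse 1 hypothalamic Sham library, which it calls an outlier, and which of the 3 it was is not stated in the text used here. In the comparisons below SHAM 1 was left out of the hypothalamic comparisons and HIP_SHAM 1 was kept in the hippocampal ones, and values with the former and without the latter are given beside the calls on the 8 genes and the lists averaged over GH, and for the hippocampus.

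**Figure D1:**
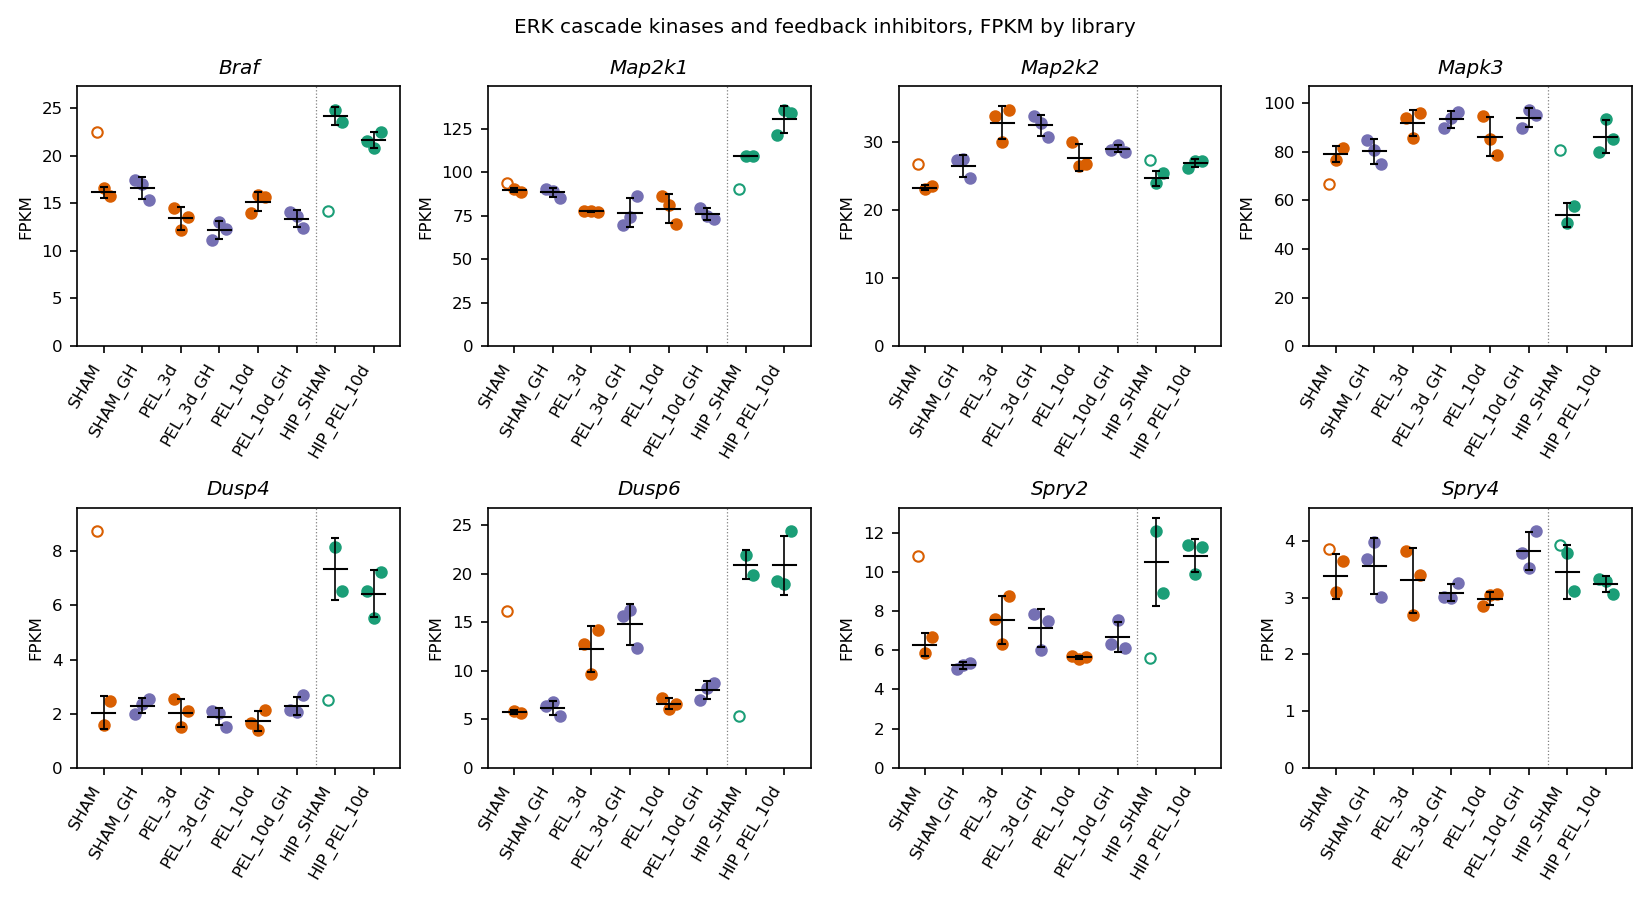
FPKM of each gene (y axis, from 0) in every library of the 8 groups (x axis); orange, hypothalamus without GH; violet, hypothalamus with GH; green, hippocampus. Open points are SHAM 1 and HIP_SHAM 1; lines and bars are the mean and SD of the filled points of a group. Dusp6 lies between 9.66 and 16.3 in the 6 day 3 libraries and between 5.34 and 6.76 in the 5 filled Sham libraries, with or without GH.

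Levels differed widely between the 8 genes. Over the 17 hypothalamic libraries other than SHAM 1, the median FPKM was 89.7 for Mapk3, 79.7 for Map2k1, 28.9 for Map2k2, 14.04 for Braf, 7.20 for Dusp6, 6.13 for Spry2, 3.26 for Spry4 and 2.08 for Dusp4. The ranges over these libraries overlapped between Mapk3 and Map2k1, between Braf and Dusp6 and between Dusp6 and Spry2, and between no other neighbours in this order. Spry4 and Dusp4 nearly met, with 2.69 FPKM in the lowest Spry4 library and 2.68 in the highest Dusp4 library. Dusp4 was the most thinly counted of them, with 64 to 367 counts per library over all 24, against 2634 to 5956 for Map2k1. Within the hypothalamus Dusp6 varied most, by 3.05 times between its lowest and highest library, and Map2k1 and Mapk3 least, by 1.3 times each.

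The first question was what PEL did to these transcripts in the hypothalamus by day 3. With the groups with and without GH averaged, Dusp6 rose to 2.25 times its Sham level, Map2k2, Spry2 and Mapk3 rose by less, and Braf and Map2k1 fell. Dusp4 and Spry4 did not pass the test. In all 6 of the 8 genes passed the threshold of 0.05 on the Benjamini-Hochberg adjusted p of edgeR's quasi-likelihood test, 4 higher and 2 lower, where 60.1% of the 15337 genes tested passed it, 31.2% higher and 28.9% lower, so a share of this size is near what all genes gave. With SHAM 1, 5 of the 8 passed, where 48.0% of genes did. The median log2 fold change of the 8 was 0.04 and that of all genes tested was 0.00. In PEL_3d against SHAM alone 5 of the 8 passed, where 40.5% of all genes did. With SHAM 1 in this comparison the count was 0 by edgeR, where 11.4% of genes passed. An unadjusted p under 0.05 was reached there by 4 of the 8 and by 3914 of 14726 genes (edgeR). In PEL_3d_GH against SHAM_GH, which touches no library that stands apart, 6 passed, where 52.1% did.

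Dusp6, the cytoplasmic ERK phosphatase, lies on the plus strand at chr10:99263231-99267489 of GRCm38. The 250 bases upstream of its start in RefSeq (GRCm38.p6, chr10:99262981-99263230, plus strand) are shown because its transcript moved most. They hold none of the 5 motifs searched on both strands in all 32851 RefSeq windows of this length: the cyclic AMP response element TGACGTCA (in 1.55% of windows), its core TGACGT, which the first contains (6.47%), the ETS site CCGGAAGT (2.88%), the AP-1 site TGANTCA (6.75%) and the CArG box of serum response factor (1.47%).

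Dusp6: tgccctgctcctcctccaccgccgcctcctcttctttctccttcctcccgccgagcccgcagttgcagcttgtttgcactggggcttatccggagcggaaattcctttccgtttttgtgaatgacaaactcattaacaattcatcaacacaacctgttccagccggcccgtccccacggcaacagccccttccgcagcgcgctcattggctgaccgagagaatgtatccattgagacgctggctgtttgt

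Dusp6 stood at 5.85 and 5.62 FPKM in SHAM 2 and 3 and at 6.40, 6.76 and 5.34 in the SHAM_GH libraries. It stood at 12.8, 9.66 and 14.3 in PEL_3d and at 15.6, 16.3 and 12.4 in PEL_3d_GH. Every day 3 library was therefore above every one of these 5 Sham libraries, whether or not GH had been given. The averaged log2 fold change was 1.17 ± 0.11 (SE; adjusted p = 1.33e-07, edgeR). Without GH it was 1.07 ± 0.15 (adjusted p = 0.000367, edgeR) and with GH 1.24 ± 0.13 (adjusted p = 3.22e-05, edgeR); these 2 comparisons share no library. SHAM 1 alone stood at 16.2 FPKM, within the range of the day 3 libraries, and with it the averaged value was 0.78 ± 0.23 (adjusted p = 0.0104) and the value without GH 0.36 ± 0.46 (adjusted p = 0.701, edgeR).

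Other cell types moved with this rise. The 10 microglia and macrophage markers, from Cx3cr1 and P2ry12 to Cd68, all rose at day 3 (median log2 fold change 2.83) and summed to 138.7 to 178.4 FPKM in the 5 Sham libraries, 1041 to 1427 at day 3 and 456.5 to 802.8 at day 10. Of 9 astrocyte markers 7 rose and 2 fell, and of 8 neuron markers 7 fell (median -0.44). Of 6 oligodendrocyte precursor markers 5 rose (summed FPKM 102 to 116 in Sham and 158.1 to 192.9 at day 3), and of 6 endothelial markers 4 rose (93.17 to 97.47 and 120.3 to 164). Of 8 oligodendrocyte markers 2 rose at day 3 and 8 at day 10, when they summed to 3383 to 4435 against 2081 to 2881 in Sham; with SHAM 1 the counts were 0 and 1. The 12 hypothalamus markers summed to 1226 to 1305 FPKM in SHAM 2 and 3 and to 789 to 890.6 in PEL_3d. With GH their sums overlapped, at 854.5 to 1216 in SHAM_GH and 809.3 to 1094 in PEL_3d_GH. In bulk tissue fewer cells of a type and less RNA per cell cannot be told apart. The part of these cells in the changes of the 8 genes was not tested.

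**Figure D2:**
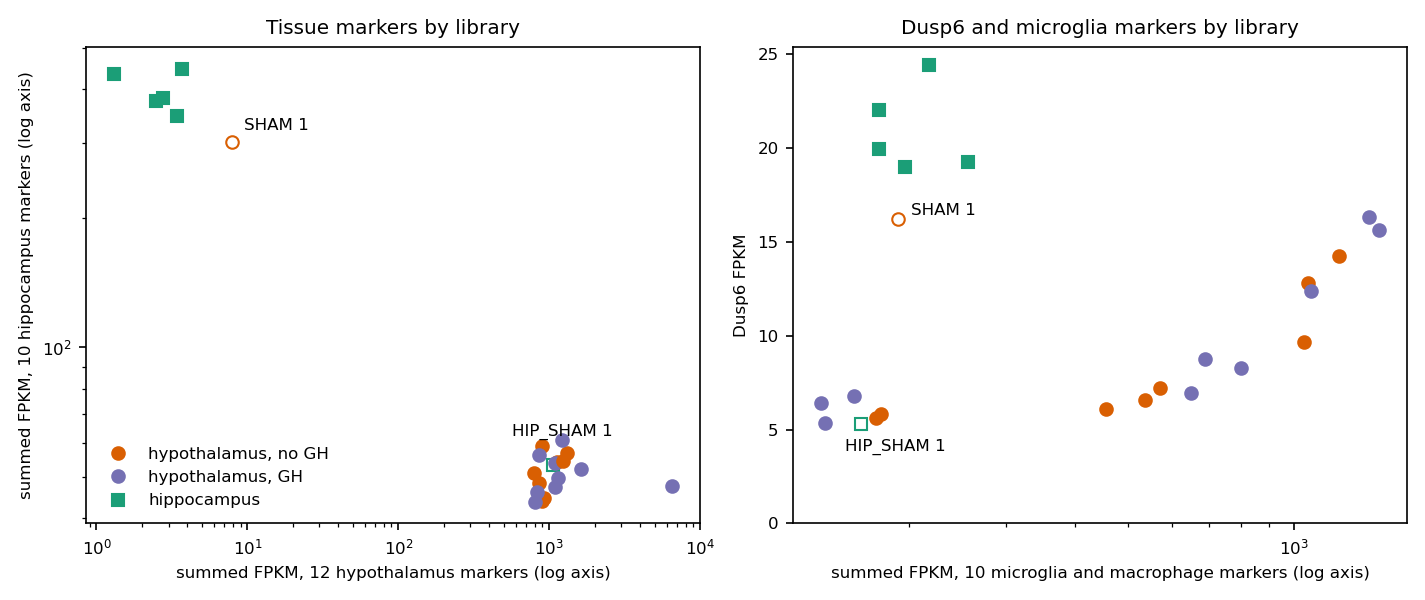
Left, summed FPKM of 12 hypothalamus markers (x axis, log scale) against 10 hippocampus markers (y axis, log scale) in all 24 libraries. Right, summed FPKM of 10 microglia and macrophage markers (x axis, log scale) against Dusp6 FPKM (y axis). Circles, libraries labelled hypothalamus; squares, hippocampus; open, SHAM 1 and HIP_SHAM 1. SHAM 1 lies near the hippocampal libraries and HIP_SHAM 1 among the hypothalamic ones. The day 3 libraries, at 1041 to 1427 microglial FPKM, lie above every other library labelled hypothalamus in Dusp6 except SHAM 1. SHAM 1, at 16.2 FPKM, lies within the day 3 range.

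Map2k2, which encodes MEK2 (chr10:81105915-81133975, plus strand), was the kinase that rose most. Its upstream 250 bases (RefSeq, GRCm38.p6, chr10:81105665-81105914, plus strand) are set beside those of Braf (chr6:39725464-39725713, minus strand), since the former rose and the latter fell. Braf lies at chr6:39603237-39725463 on the minus strand. Capitals mark TGACGTCA, which occurs 2 times in the Braf window and in no other of the 5 windows that matched the 8 genes (Braf, Dusp6, Map2k1, Map2k2 and Spry2; Dusp4, Mapk3 and Spry4 did not match). The core TGACGT is also in the Map2k1 window. No match is more than a description of these letters.

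Map2k2: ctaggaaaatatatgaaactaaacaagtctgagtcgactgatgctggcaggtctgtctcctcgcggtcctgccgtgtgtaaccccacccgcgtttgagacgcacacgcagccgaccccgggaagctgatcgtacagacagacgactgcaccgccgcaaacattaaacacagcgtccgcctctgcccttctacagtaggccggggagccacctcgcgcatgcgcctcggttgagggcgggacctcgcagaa
Braf: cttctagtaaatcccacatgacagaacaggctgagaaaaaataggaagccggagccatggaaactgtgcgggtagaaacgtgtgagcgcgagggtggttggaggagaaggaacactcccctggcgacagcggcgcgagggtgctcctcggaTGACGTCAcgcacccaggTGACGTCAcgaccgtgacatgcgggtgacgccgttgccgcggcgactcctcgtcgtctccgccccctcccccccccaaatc

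Map2k2 stood at 23.1 and 23.6 FPKM in SHAM 2 and 3 and at 27.3, 27.5 and 24.7 in SHAM_GH. At day 3 it stood at 33.8, 30.1 and 34.8 in PEL_3d and at 33.9, 32.9 and 30.9 in PEL_3d_GH, all above the 5 Sham libraries. Its averaged log2 fold change was 0.37 ± 0.05 (adjusted p = 1.75e-05, edgeR), and 0.31 ± 0.06 with SHAM 1, in which it stood at 26.8 FPKM.

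Mapk3, which encodes ERK1 (chr7:126759601-126765819, plus strand), rose by less. It stood at 76.8 and 81.5 FPKM in SHAM 2 and 3 and at 84.9, 80.8 and 74.8 in SHAM_GH, against 94.1, 85.8 and 96.0 in PEL_3d and 89.7, 94.1 and 96.6 in PEL_3d_GH. The lowest day 3 library was above the highest Sham library by less than 1 FPKM. The averaged log2 fold change was 0.21 ± 0.05 (adjusted p = 0.00202, edgeR), and 0.22 ± 0.05 with SHAM 1, which stood at 66.9 FPKM.

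Braf, the Raf kinase at the top of the cascade, fell. It stood at 16.6 and 15.7 FPKM in SHAM 2 and 3 and at 17.4, 17.1 and 15.3 in SHAM_GH, and at 14.5, 12.2 and 13.6 in PEL_3d and 11.1, 13.0 and 12.3 in PEL_3d_GH. All 6 day 3 libraries were below all 5 Sham libraries. The averaged log2 fold change was -0.39 ± 0.05 (adjusted p = 1.75e-06, edgeR), and -0.50 ± 0.08 with SHAM 1.

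Map2k1, which encodes MEK1 (chr9:64185770-64253631, minus strand), fell while its close relative Map2k2 rose. It stood at 90.6 and 88.8 FPKM in SHAM 2 and 3 and at 90.4, 89.4 and 85.3 in SHAM_GH. In PEL_3d it stood at 77.6, 77.9 and 77.3, and in PEL_3d_GH at 69.7, 74.5 and 86.1, the last of which overlapped the Sham libraries. The averaged log2 fold change was -0.22 ± 0.05 (adjusted p = 0.00222, edgeR), and -0.26 ± 0.06 with SHAM 1.

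Among the Sprouty genes, Spry2 (chr14:105891947-105896819, minus strand) rose and Spry4 (chromosome 18) did not pass the test. Spry2 stood at 5.87 and 6.70 FPKM in SHAM 2 and 3 and 5.05, 5.27 and 5.38 in SHAM_GH, and at 7.61, 6.32 and 8.76 in PEL_3d and 7.85, 6.03 and 7.51 in PEL_3d_GH, so the groups overlapped. Its averaged log2 fold change was 0.35 ± 0.10 (adjusted p = 0.0058, edgeR). The averaged call rested on leaving out SHAM 1, in which Spry2 stood at 10.8 FPKM: with it the value was 0.15 ± 0.15 (adjusted p = 0.417, edgeR). In the comparisons within 1 GH state, Spry2 was at 0.42 ± 0.13 with GH, where SHAM 1 does not enter (adjusted p = 0.0192, edgeR), and at 0.25 ± 0.15 without GH (adjusted p = 0.23, edgeR). Spry4 ranged from 2.69 to 3.81 FPKM at day 3 and from 3.01 to 3.99 in the 5 Sham libraries (log2 fold change -0.13 ± 0.10, adjusted p = 0.261, edgeR).

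Dusp4, the nuclear phosphatase gene (chr8:34807297-34819894, plus strand), ranged from 1.49 to 2.53 FPKM at day 3 and from 1.60 to 2.53 in the 5 Sham libraries, and its averaged log2 fold change was -0.16 ± 0.17 (adjusted p = 0.444, edgeR). The pair of ERK phosphatase genes thus gave different values in the same libraries, and the difference between them was not tested. In SHAM 1 Dusp4 stood at 8.75 FPKM, above every other hypothalamic library. With SHAM 1, averaged over GH, Dusp4 did not pass at day 3 but had an unadjusted p under 0.05 (edgeR), as did 8232 of 15214 genes.

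**Figure D3:**
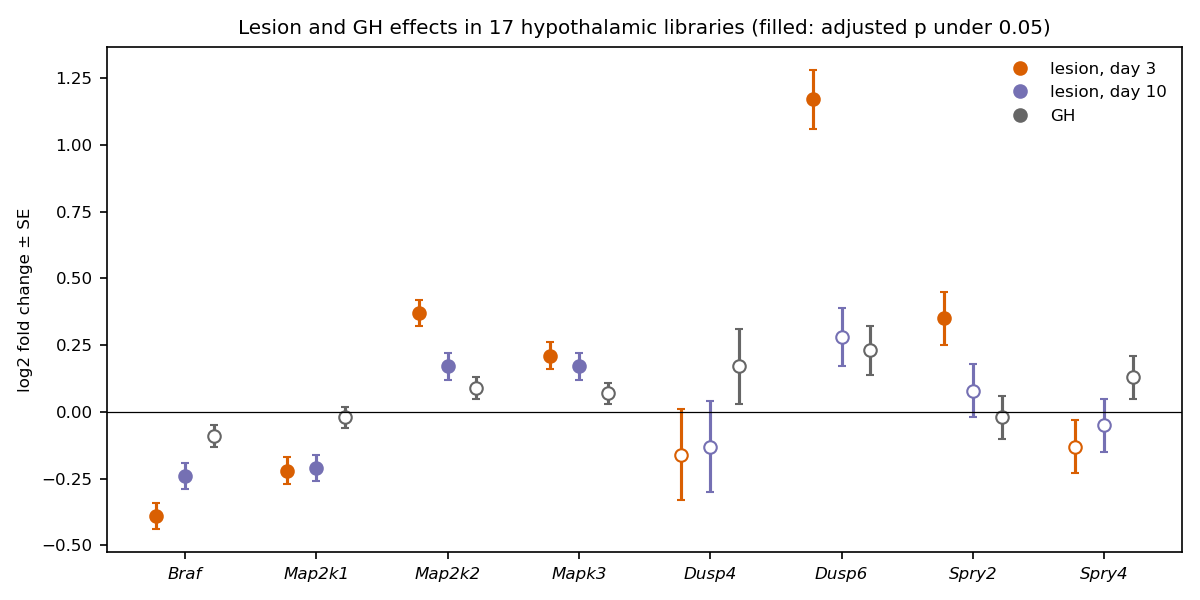
Log2 fold change (y axis) with its SE for each gene (x axis) in 1 edgeR fit over 17 hypothalamic libraries, without SHAM 1. Orange, PEL day 3 against Sham; violet, PEL day 10 against Sham, both averaged over GH; grey, GH averaged over Sham, day 3 and day 10. Filled points passed the adjusted threshold of 0.05. Dusp6 at day 3 stands at 1.17, and no grey point is filled.

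At day 10, averaged over GH, 4 of the 8 passed the test, Map2k2 and Mapk3 higher and Braf and Map2k1 lower, where 31.9% of all genes tested passed, 19.4% higher and 12.5% lower. The values were 0.17 ± 0.05 for Map2k2 (adjusted p = 0.0288, edgeR), 0.17 ± 0.05 for Mapk3 (adjusted p = 0.0198), -0.24 ± 0.05 for Braf (adjusted p = 0.000784) and -0.21 ± 0.05 for Map2k1 (adjusted p = 0.00611). The day 3 and day 10 comparisons share their Sham libraries. With SHAM 1, Map2k2 was at 0.10 ± 0.06 (adjusted p = 0.305, edgeR) and 3 of the 8 passed, where 17.2% of genes did: Braf (-0.35 ± 0.08), Map2k1 (-0.26 ± 0.06) and Mapk3 (0.18 ± 0.05). Within PEL_10d against SHAM alone 0 of the 8 passed by edgeR and 0 by DESeq2, where 9.40% of genes passed by edgeR (1392 genes, but 269 with SHAM 1). The count of genes also fell without SHAM 2 or SHAM 3, in fits that leave 1 SHAM library. An unadjusted p under 0.05 (edgeR) was reached by 2 of the 8 (Braf and Map2k1) and by 3631 of 14801 genes. Within PEL_10d_GH against SHAM_GH 4 passed, where 30.9% did: Braf (-0.33 ± 0.05), Map2k1 (-0.24 ± 0.05), Mapk3 (0.21 ± 0.06) and Dusp6 (0.36 ± 0.12, adjusted p = 0.0441, edgeR). In 1 fit over all hypothalamic groups that value of Dusp6 had an adjusted p of 0.0808. Without PEL_10d_GH 3, the library high in Pomc, 2 of the 8 passed, Braf and Map2k1. The same 2 were left without PEL_10d_GH 2, without SHAM_GH 2 or without SHAM_GH 3.

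Dusp6 at day 10 stood at 7.20, 6.07 and 6.59 FPKM in PEL_10d and at 6.96, 8.27 and 8.73 in PEL_10d_GH. These lie below all 6 day 3 libraries and reach into the Sham range. Against Sham the averaged value was 0.28 ± 0.11 (adjusted p = 0.0699, edgeR), and with SHAM 1 it turned to -0.11 ± 0.23.

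Time after the lesion was also compared directly, within lesioned mice, so that no Sham library enters. Dusp6 fell from day 3 to day 10 by 0.89 ± 0.14 on the log2 scale without GH (adjusted p = 0.00303, edgeR) and by 0.89 ± 0.13 with GH (adjusted p = 0.00295). It was the only one of the 8 to pass in either comparison, where 18.5% and 15.6% of all genes passed. These shares moved with single libraries, from 2742 genes to as few as 1333 without PEL_3d 3, and from 2315 genes to 704 without PEL_3d_GH 1 and 4435 without PEL_3d_GH 3. Spry2 without GH was at -0.42 ± 0.14 (adjusted p = 0.0602, edgeR) and Map2k2 at -0.25 ± 0.08 (adjusted p = 0.0618). In the same comparisons 9 and 10 of the 10 microglia and macrophage markers fell (medians -1.05 and -0.79).

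The question of GH was asked 3 times in matched groups and once averaged over them. By edgeR 0 of the 8 genes passed in any of the 4 fits, nor did any by DESeq2. DESeq2 gave no adjusted p for Dusp4, Spry2 and Spry4 in PEL_10d_GH against PEL_10d. In PEL_3d_GH against PEL_3d, 0.0270% of genes passed. An unadjusted p under 0.05 (edgeR) was reached by 1006 of 14798 genes and by 0 of the 8. In SHAM_GH against SHAM, 1.09% passed, and that unadjusted p was reached by 2187 of 14539 genes and 0 of the 8. In PEL_10d_GH against PEL_10d, 0% passed (39 genes by DESeq2 after adjustment). The unadjusted p was reached by 906 of 14763 genes and by 3 of the 8: Braf, Dusp6 and Spry4. Averaged over lesion state, 0.411% passed. The unadjusted p was reached by 1681 of 15337 genes and by 2 of the 8, Braf and Dusp6. Dusp6 was at 0.23 ± 0.09 (adjusted p = 0.353, edgeR) and Braf at -0.09 ± 0.04 (adjusted p = 0.402). With SHAM 1 Dusp6 turned to -0.03 ± 0.19 (adjusted p = 0.987, edgeR) and had no unadjusted p under 0.05, and Braf was at -0.16 ± 0.07. Spry4 stood at 3.78, 3.52 and 4.17 FPKM in PEL_10d_GH and at 2.85, 3.04 and 3.06 in PEL_10d (log2 difference 0.36 ± 0.10, adjusted p = 0.712, edgeR). These groups did not overlap, and the difference did not pass.

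The pathway around the 8 genes was described by lists of its other parts, at day 3 averaged over GH and without SHAM 1, where 60.1% of all genes passed, 31.2% higher and 28.9% lower (48.0% with SHAM 1); at day 10 31.9% passed, 19.4% higher and 12.5% lower (17.2% with SHAM 1). Of 5 other kinases and scaffolds, 2 rose and 2 fell (median -0.07): the ERK-binding protein Pea15a (0.26 ± 0.04) and the scaffold Lamtor3 (0.17 ± 0.06) rose, and the scaffold Ksr2 (-0.66 ± 0.08) and the Raf kinase gene Araf (-0.31 ± 0.06) fell. Araf thus fell as Braf did. With SHAM 1 the list gave 1 risen and 1 fallen, Pea15a and Ksr2. At day 10, Ksr2 (-0.28 ± 0.08) and Araf (-0.22 ± 0.06) were lower and the scaffold Ksr1 was higher at 0.20 ± 0.06, and with SHAM 1 none of the 5 passed.

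Upstream, of 14 Ras proteins, adaptors, exchange factors and GTPase activating proteins, 2 rose and 8 fell (median -0.19), which is 71.4% of the list against 60.1% of all genes. With SHAM 1, 2 rose and 6 fell. The risen ones were the adaptor Shc1 (1.32 ± 0.17), at 11.1 to 18.6 FPKM at day 3 and 5.02 to 7.47 in the 5 Sham libraries, and Nras (1.11 ± 0.08), at 17.9 to 26.9 against 8.79 to 11. Of the 14, the exchange factor genes Rasgrf1 (-0.48 ± 0.07), Sos1 (-0.45 ± 0.05) and Rasgrp1 (-0.43 ± 0.07) fell most; with SHAM 1 Rasgrp1 was at -1.50 ± 0.45. At day 10, Shc1 was still higher at 0.93 ± 0.17 and Nras at 0.44 ± 0.08, and 4 of the 14 were lower, where 12.5% of all genes were. With SHAM 1, Shc1 (0.94 ± 0.16) was the 1 gene higher and Rasgrp1 the 1 gene lower, and Nras did not pass.

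Among the other feedback inhibitors, 11 of 12 could be tested, and 3 rose and 3 fell (median -0.14), which is 54.5% against 60.1% of all genes. Dusp5, a nuclear ERK phosphatase, was at 1.1 ± 0.22, on 46 to 77 counts per library at day 3 and 20 to 44 in Sham. Spry1 rose by 0.37 ± 0.11 and Dusp7 by 0.28 ± 0.08, and Spred1, Spred2 and Spred3 fell by 0.14 to 0.29. With SHAM 1 none of the 3 rises passed and 2 of the 11 were lower. At day 10, 1 of the 11 passed, Spred2 (-0.17 ± 0.05), where 31.9% of all genes did, and with SHAM 1 it was also the 1 that passed (-0.32 ± 0.10).

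Downstream, all 8 ERK substrates passed at day 3, 5 higher and 3 lower (median 0.43), where 31.2% of all genes were higher and 28.9% lower. With SHAM 1, 4 were higher and 3 lower. The ribosomal S6 kinase gene Rps6ka1 stood at 13.1 to 17.1 FPKM at day 3, 7.93 to 10.5 at day 10 and 5.25 to 6.25 in Sham, in groups that did not overlap (1.31 ± 0.07 at day 3 and 0.56 ± 0.07 at day 10, and 1.28 ± 0.06 and 0.54 ± 0.06 with SHAM 1). At day 10, 4 of the 8 were higher and 1 lower, and with SHAM 1 only Rps6ka1 of the 8 passed. Mknk2 (1.07 ± 0.11) and Rps6ka3 (0.87 ± 0.11) rose, and Rps6ka2 (-0.62 ± 0.08), Rps6ka5 (-0.36 ± 0.07) and the transcription factor gene Elk1 (-0.30 ± 0.06) fell.

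Of 12 transcripts that follow ERK activity, 4 rose and 2 fell at day 3 (median 0.21), which is 50% of the list against 60.1% of all genes; the counts with SHAM 1 were also 4 and 2. The ETS factor gene Etv4 stood at 2.19 to 3.18 FPKM against 1.12 to 1.75 in Sham (0.85 ± 0.14), and Ier3 was at 0.61 ± 0.19, in groups that overlapped (8.76 to 12.7 FPKM at day 3 and 4.98 to 14.1 in Sham). Ier3 passed without GH (1.03 ± 0.18) and did not pass with GH (0.17 ± 0.27). Fosl1 was among the 4 but rested on 55 counts over the 6 day 3 libraries and 6 over the 5 Sham libraries. The neuronal immediate early genes Egr1 (-0.92 ± 0.15) and Arc (-0.62 ± 0.12) fell, and with SHAM 1 Arc was at -1.35 ± 0.37. At day 10 only Phlda1 of the 12 passed (0.32 ± 0.12, adjusted p = 0.0452, edgeR), where 31.9% of all genes did, and with SHAM 1 none of the 12 passed.

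**Figure D4:**
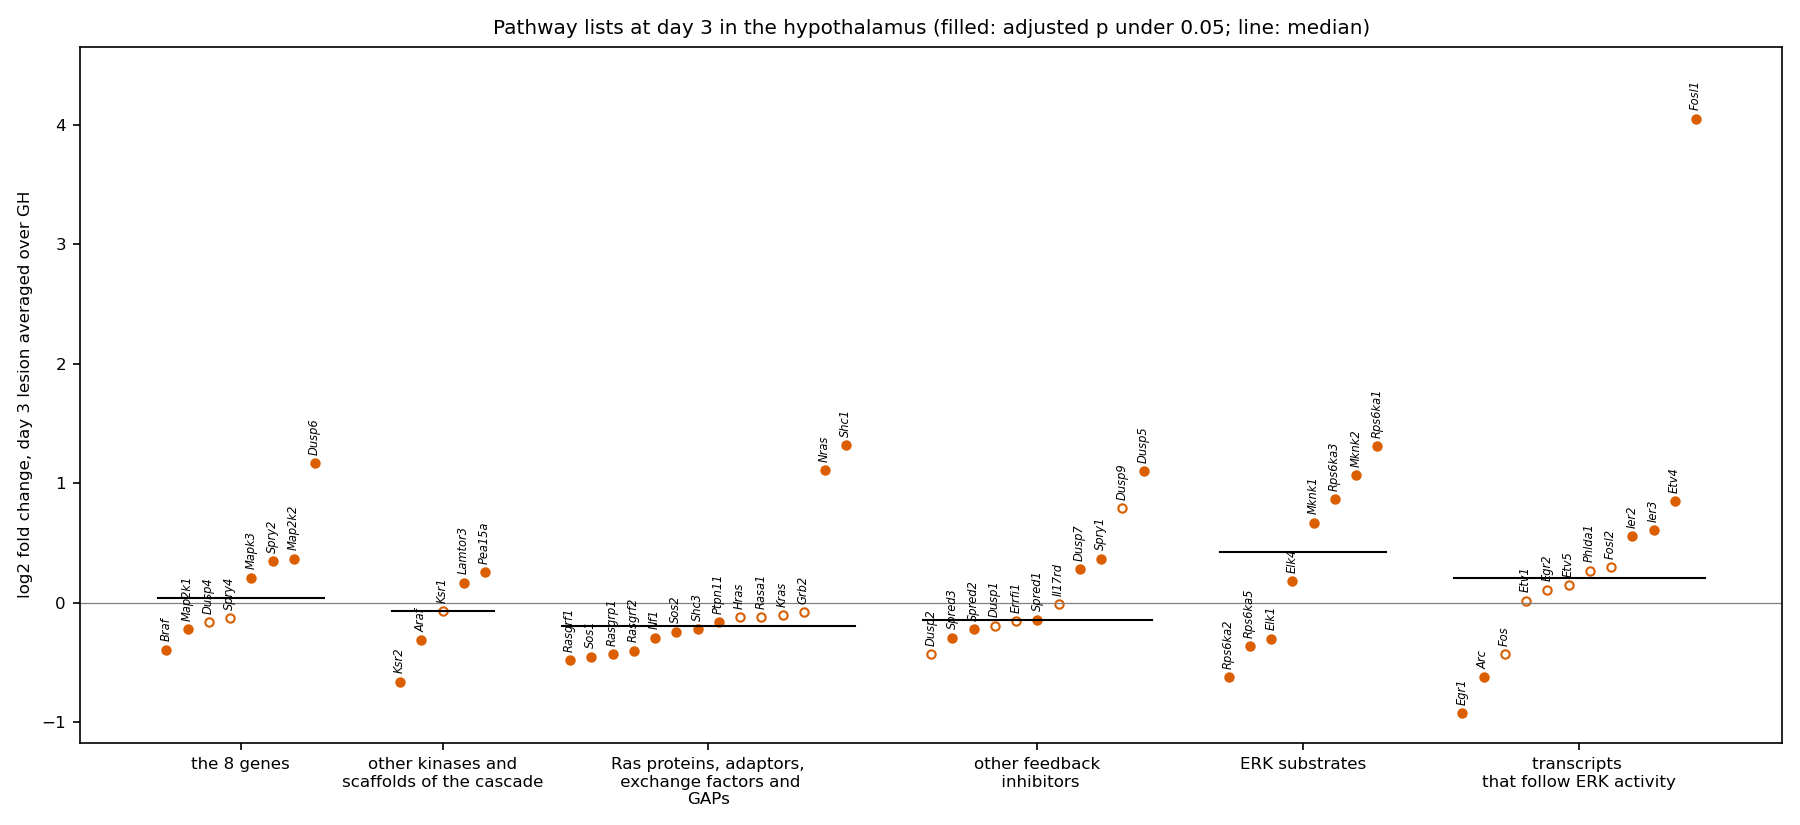
Log2 fold change at day 3 (y axis, averaged over GH, without SHAM 1) for each tested gene of the 8 described genes and of 5 lists of the pathway (x axis, in order of value). Filled points passed the adjusted threshold of 0.05 and lines are list medians. Each list holds genes on both sides of 0; Fosl1, at the top, rests on few counts.

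The genes whose levels ran most alike were found over the 17 hypothalamic libraries, as Pearson's r of log2(FPKM + 0.1) among 13349 genes with a mean FPKM of at least 1. The libraries share their lesion groups, so r describes mainly the order of the groups. P4hb (0.981), Ptpn1 (0.979) and Rab5if (0.977) were nearest to Dusp6, and Syt14 (0.964), Gm1043 and Helz (0.954 each) to Braf. For Map2k2 they were Npepl1 (0.954), Man2b2 and Ube3b (0.953 each), for Map2k1 Adcy3 (0.943), Ywhah (0.919) and Fndc9 (0.917), and for Mapk3 Aup1 (0.934), Rpl10-ps3 (0.923) and Ski (0.918). The values were lower for Spry2 (Pisd 0.864, Sf3b5 0.834, Med25 0.826), Dusp4 (P2ry1 0.763, Rpusd2 0.753, Epas1 0.751) and Spry4 (Zfp319 0.717, Zfp629 and Mvb12b 0.696). Between the 8 genes themselves r was 0.91 for Map2k2 with Dusp6, -0.74 for Braf with Dusp6 and -0.57 for Map2k1 with Map2k2.

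The tissues were compared in lesioned mice at day 10, with neither of the libraries that stand apart. By edgeR's test on TMM-scaled counts all 8 genes passed as lower in the hypothalamus than in the hippocampus, where 60.6% of all genes tested passed in either direction and 29.7% were lower. For Map2k2 the direction depended on the scale, with a mean FPKM of 27.78 in PEL_10d and 26.95 in HIP_PEL_10d. For Mapk3 the mean FPKM was nearly equal, at 86.28 and 86.34. Dusp4, Dusp6 and Spry2 differed most. Dusp4 stood at 1.66, 1.40 and 2.13 FPKM in PEL_10d and 6.53, 5.54 and 7.25 in HIP_PEL_10d, a log2 difference of -2.14 ± 0.18 (adjusted p = 8.68e-06, edgeR). Dusp6 stood at 19.2, 19.0 and 24.4 FPKM in HIP_PEL_10d, above even the day 3 hypothalamus, at -1.90 ± 0.12 (adjusted p = 1.7e-06), and Spry2 at 11.4, 9.89 and 11.3 against 5.70, 5.55 and 5.66, at -1.19 ± 0.10 (adjusted p = 9.27e-06). The kinases followed with Map2k1 at -0.97 ± 0.09 and Braf at -0.78 ± 0.07. Spry4 (-0.36 ± 0.10), Mapk3 (-0.25 ± 0.08, adjusted p = 0.031, edgeR) and Map2k2 (-0.22 ± 0.07, adjusted p = 0.0308) differed least, and on the FPKM scale the libraries of both kinases overlapped. In 1 fit over both tissues, the last 2 did not pass (adjusted p = 0.176 for Mapk3 and 0.0705 for Map2k2, edgeR). The neuron markers were also lower in the hypothalamus, 6 of 8 (median -0.98), and 8 of 10 microglia and macrophage markers were higher and 1 lower. Astrocyte markers summed to 1205 to 1316 FPKM in PEL_10d and 720 to 851.8 in HIP_PEL_10d. The sums were 130.2 to 144.4 and 78.42 to 105.1 for oligodendrocyte precursors, and 117.4 to 138.3 and 91.55 to 97.81 for endothelium. Those of oligodendrocytes overlapped, and those of choroid plexus were lower in PEL_10d. The part of these cells in the difference was not tested. The 2 libraries that stand apart showed the tissue gap against their labels, with Dusp4, Dusp6 and Spry2 at 8.75, 16.2 and 10.8 FPKM in SHAM 1 and at 2.50, 5.29 and 5.61 in HIP_SHAM 1.

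In the hippocampus, PEL at day 10 was compared with Sham because the study's interest lies in ERK signalling there. With all 6 libraries 0 of the 8 genes passed by edgeR, and 0% of all 14039 genes tested did (1434 at an unadjusted p under 0.05, and 231 by DESeq2 after adjustment). Mapk3 was the 1 gene of the 8 with an unadjusted p under 0.05. It stood at 79.8, 93.7 and 85.5 FPKM in HIP_PEL_10d and at 80.9, 50.6 and 57.5 in HIP_SHAM 1, 2 and 3, so that HIP_SHAM 1 fell within the lesioned range (log2 fold change 0.52 ± 0.14, adjusted p = 0.389, edgeR). Without HIP_SHAM 1, Mapk3 was at 0.66 ± 0.09 (adjusted p = 0.00571, edgeR) and was the only one of the 8 to pass, where 6.15% of all genes did.

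Map2k1 stood at 122, 136 and 134 FPKM in HIP_PEL_10d and at 90.5, 109 and 109 in HIP_SHAM. It was at 0.38 ± 0.16 with all libraries (adjusted p = 0.493, edgeR) and at 0.23 ± 0.07 without HIP_SHAM 1 (adjusted p = 0.0804). All 3 lesioned libraries were above HIP_SHAM 2 and 3, and above HIP_SHAM 1, whose markers go against its label. Neither fit passed the threshold. Dusp6 stood at 22 and 19.9 FPKM in HIP_SHAM 2 and 3, within the lesioned range, and its difference without HIP_SHAM 1 was -0.02 ± 0.12. Braf was at -0.17 ± 0.06 (adjusted p = 0.123, edgeR) and the other 4 genes had adjusted p-values of 0.415 to 0.936 in that fit.

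Choroid plexus markers moved with this comparison. The 9 choroid plexus markers summed to 4345 and 5446 FPKM in HIP_SHAM 2 and 3, against 134.6, 38.93 and 798.3 in HIP_PEL_10d and 14880 in SHAM 1, while the other 17 hypothalamic libraries had 8.449 to 25.35. Without HIP_SHAM 1, 8 of the 9 were lower after PEL (median log2 fold change -3.96). The 10 microglia and macrophage markers summed to 255.9, 197.1 and 218.2 FPKM in HIP_PEL_10d and to 164.2, 176.7 and 176.7 in HIP_SHAM 1, 2 and 3, and without HIP_SHAM 1 all 10 had a positive log2 fold change (median 0.34), with adjusted p-values from 0.0593 for Cx3cr1 to 0.606 for Aif1 (edgeR). Of 10 hippocampus markers, 4 passed without HIP_SHAM 1. Neurod6 (-0.51 ± 0.12) and Spink8 (-0.63 ± 0.13) were lower after PEL, and C1ql2 (0.70 ± 0.12) and Fibcd1 (0.58 ± 0.11) higher. Of 8 neuron markers, Nefl (-0.30 ± 0.07) and Nefm (-0.31 ± 0.06) were lower and the others did not pass. The part of these marker lists in the value of Mapk3 was not tested.

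**Figure D5:**
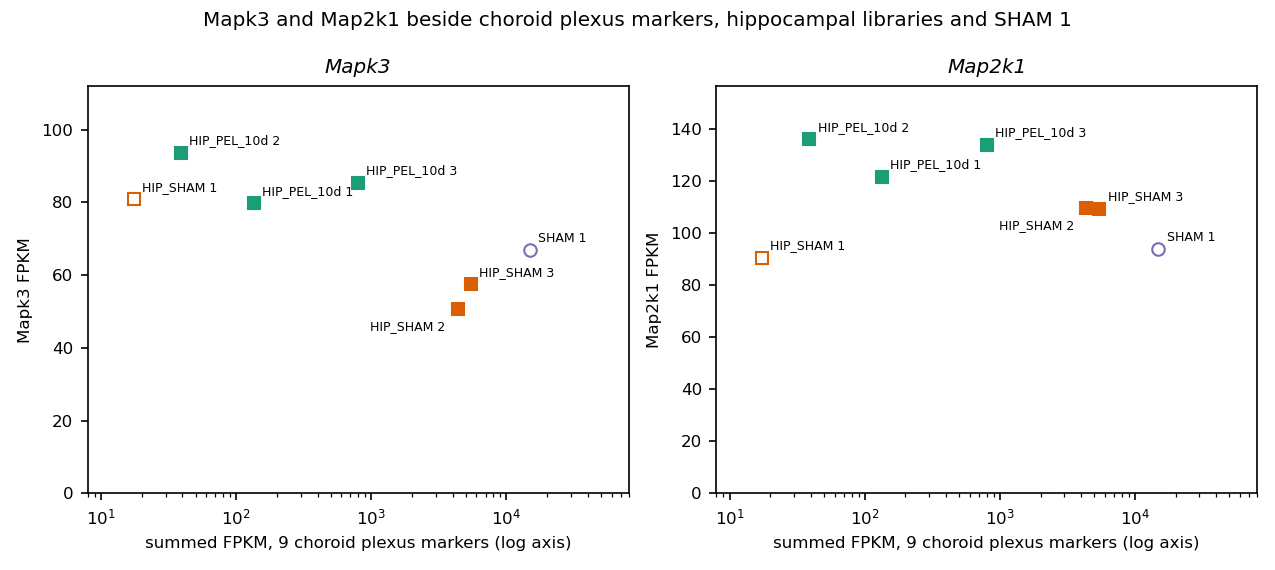
Mapk3 (left) and Map2k1 (right) FPKM (y axis, from 0) against the summed FPKM of 9 choroid plexus markers (x axis, log scale) in the 6 libraries labelled hippocampus (squares) and in SHAM 1 (circle). Green, HIP_PEL_10d; orange, HIP_SHAM; violet, SHAM 1; open points are the 2 libraries that stand apart. HIP_SHAM 2 and 3, at 4345 and 5446 choroid plexus FPKM, have the lowest Mapk3 levels, 50.6 and 57.5.

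Whether the lesion effect at day 10 differed between the tissues was tested as an interaction term. With HIP_SHAM 1, 0 of the 8 genes passed by edgeR and 0 by DESeq2, where 1.88% of all genes passed by edgeR. An unadjusted p under 0.05 (edgeR) was reached by 1 of the 8, Map2k1, and by 2242 of 15093 genes. Without HIP_SHAM 1, Mapk3 (-0.58 ± 0.13, adjusted p = 0.0143, edgeR) and Map2k1 (-0.46 ± 0.12, adjusted p = 0.0283) passed, where 10.7% did: in both, the change in the hypothalamus was lower than that in the hippocampus. With SHAM 1 but not HIP_SHAM 1, 0 of the 8 passed by edgeR, where 0.0992% of genes did. Mapk3 was at -0.52 ± 0.15 (adjusted p = 0.188, edgeR) and Map2k1 at -0.50 ± 0.14 (adjusted p = 0.181). These 2 of the 8 had an unadjusted p under 0.05 in that fit, as did 1638 of 15116 genes.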

How the data were processed

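Sequencing libraries were prepared from total RNA with a SMARTER mRNA-Seq kit, whose strand setting is not given in the sources used here. Per the methods of the study, the authors used Hisat2 for alignment and featureCounts for counting, and the labels name the builds GRCm38 and mm10. A single deposited file holds, for each gene and library, the authors' estimated count and their FPKM, which is scaled to gene length and library size. Because 8.22% of these deposited estimated counts, in 3410 genes, had a fractional part, they were rounded. Symbols were matched by identifier for 22219 of 22274 genes. Positions are those of GENCODE on GRCm38.

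The main test was the quasi-likelihood F-test of edgeR 4.0.16 (R 4.3.3) on TMM-scaled counts. Genes had to pass filterByExpr (minimum count 10), p-values were adjusted by Benjamini-Hochberg over every gene tested, and the threshold was 0.05. Each fit held the groups compared, and the averaged contrasts and the interaction used 1 fit over their groups. The fits were tested on simulated data. DESeq2 1.42.0 and the settings given in the closing section were alternatives. Levels are FPKM as deposited. The 8 genes, the pathway and marker lists and the libraries left out were chosen with earlier results of these data known. Named are the 8 genes, up to 3 genes in each direction of each pathway list, those of largest change among those past the threshold, and the 3 genes most like each of the 8. Some genes of the pathway lists are not reported here and were left out of the list counts. Python 3.11.15 with pandas 2.3.3 and matplotlib 3.10.9 made the tables and plots.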

Additional observations from a re-analysis of the deposited data

Results flagged for a closer look

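Within lesioned mice Dusp6 differed between the time points. The log2 value of day 10 against day 3 was -0.89 without GH and -0.89 with GH, each past the adjusted threshold in edgeR. No Sham library enters these comparisons, and there is no Sham group of the same day. The lesion effect at day 10 differed between hypothalamus and hippocampus for Map2k1 (-0.46) and Mapk3 (-0.58) in the fit without the library labelled HIP_SHAM 1; with that library neither passed, and with SHAM 1 also included neither passed (adjusted p = 0.181 and 0.188, edgeR). The 9 choroid plexus markers summed to 4345 and 5446 FPKM in the 2 HIP_SHAM libraries of that fit and to 38.93 to 798.3 in HIP_PEL_10d, and their part in the difference was not tested. Single libraries far from their group were not looked for gene by gene, since every group has 3.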

How the results depend on the processing

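The largest dependence was on the library labelled SHAM 1: with it, 0 of the 8 genes passed in PEL_3d against SHAM, in place of 5. With it the sign also turned for Spry2 (-0.09) in PEL_3d against SHAM, Dusp6 (-0.54) in PEL_10d against SHAM, Dusp4 (-0.94), Dusp6 (-0.62) and Spry4 (-0.01) in SHAM_GH against SHAM, Dusp6 (-0.11) and Spry2 (-0.11) at day 10 averaged over GH, Dusp4 (-0.22) and Dusp6 (-0.03) for GH averaged over lesion state, and Map2k2 in the interaction (-0.03, and -0.02 also without HIP_SHAM 1); none of these passed the test. Limits of depth fall mainly on Dusp4, with as few as 64 counts in a library.

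Replicate numbers did not pair the libraries: over 29 pairs in 11 comparisons the correlation of their deviations was -0.28 to 0.21, and in 0 comparisons was every pair over 0.1. With the replicate block, 1 of the 8 passed in PEL_10d against SHAM (Map2k1, in place of 0) and 3 in PEL_10d against PEL_3d (Dusp6, Map2k2 and Spry2, in place of 1), where 1 fit over all hypothalamic groups gave 4. Other counts of the 8 genes kept within 1.5 times of the reported ones under the block, DESeq2, its size factors, no filter on low counts or a mean count of at least 50. Under the last, Dusp4 was at 0.01 in PEL_10d_GH against SHAM_GH.

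The counts over all genes moved more: DESeq2 gave 231 in the hippocampus in place of 0, 821 in the interaction in place of 284, 266 in SHAM_GH against SHAM in place of 159, 59 in PEL_3d_GH against PEL_3d in place of 4, 39 in PEL_10d_GH against PEL_10d in place of 0 and 164 for GH averaged over lesion state in place of 63. The block gave 1109 in PEL_10d_GH against PEL_3d_GH in place of 2315, 317 in SHAM_GH against SHAM, 157 in the interaction and 1 in PEL_3d_GH against PEL_3d, and without a filter on low counts SHAM_GH against SHAM gave 359 and PEL_3d_GH against PEL_3d 8. One fit over all hypothalamic groups gave 4121 in PEL_10d_GH against PEL_3d_GH, 13 in SHAM_GH against SHAM, 9 in PEL_3d_GH against PEL_3d and 2 in PEL_10d_GH against PEL_10d, and 1 fit over both tissues gave 76 in the hippocampus. With 1 library left out, SHAM_GH against SHAM gave 44 (without SHAM_GH 1) and PEL_3d_GH against PEL_3d gave 56 (without PEL_3d_GH 3). GH averaged over lesion state gave 41 without PEL_10d 2 and 97 without PEL_3d_GH 3, and the interaction gave 31 without PEL_10d 3. Counts also fell in PEL_3d against SHAM and in the interaction without SHAM 2 or SHAM 3, in fits that leave 1 SHAM library.

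With 1 library left out, where a group left with 1 library is assumed to vary like the others, the count passing was 2 to 6 in PEL_3d against SHAM (2 without SHAM 2 and 3 without SHAM 3), 1 to 3 in PEL_10d against PEL_3d (3 without PEL_3d 2 or PEL_10d 1), 3 to 6 in PEL_3d_GH against SHAM_GH (3 without SHAM_GH 2), 2 to 5 in PEL_10d_GH against SHAM_GH (2 without SHAM_GH 2 or 3 or PEL_10d_GH 2 or 3), 0 to 1 in the hippocampus and 0 to 2 in the interaction (1 and 2 without HIP_SHAM 1), and 2 to 5 at day 10 averaged over GH (2 without SHAM 2, SHAM_GH 3 or PEL_10d 1). At day 3 averaged over GH it stayed 6. Signs turned within these ranges, in values that did not pass with all libraries: PEL_3d against SHAM, Dusp4 -0.29 to 0.32 and Spry4 -0.16 to 0.09; PEL_10d against SHAM, Dusp4 -0.53 to 0.09; PEL_10d against PEL_3d, Map2k1 -0.02 to 0.11; PEL_10d_GH against SHAM_GH, Dusp4 -0.14 to 0.07 and Spry4 -0.02 to 0.17; PEL_10d_GH against PEL_3d_GH, Map2k1 -0.09 to 0.07; PEL_3d_GH against PEL_3d, Map2k1 -0.09 to 0.08, Dusp4 -0.28 to 0.08, Spry2 -0.18 to 0.06 and Spry4 -0.20 to 0.04; PEL_10d_GH against PEL_10d, Map2k1 -0.13 to 0.01; SHAM_GH against SHAM, Dusp4 -0.09 to 0.53 and Spry4 -0.01 to 0.21; the hippocampus, Braf -0.17 to 0.23, Dusp4 -0.21 to 0.54 and Dusp6 -0.02 to 0.74; the interaction, Map2k2 -0.03 to 0.09 and Dusp6 -0.58 to 0.18; day 3 averaged over GH, Dusp4 -0.29 to 0.02; day 10 averaged over GH, Dusp4 -0.27 to 0.04 and Spry4 -0.11 to 0.01; GH averaged over lesion state, Spry2 -0.06 to 0.02. The cause of these turns was not tested.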
